A study of Sus scrofa with 27 samples.

Results

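The hypoxia response and glycolysis genes examined here are 43 pig genes that sense oxygen, that are induced by the hypoxia-inducible factors (HIFs), or that carry glucose to lactate. They were listed by symbol, and a member was kept when its Ensembl identifier could be found and its mean count over all libraries was at least 5. Of the 43 genes, 38 had an identifier in the symbol table and all 38 passed the count filter, out of 11384 genes tested. EGLN2, VHL, BNIP3, SLC2A3 and SLC16A1 were not analysed here. No difference between the groups enters this rule, but the symbols were listed with earlier results of these data known.

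The cells were mural granulosa cells (GCs), which line the inner wall of the ovarian follicle, captured by laser microdissection from 1 follicle per sow, the largest of those found healthy in the right ovary. All sows were wild type, first-litter crosses of Large White and Norwegian Landrace. During the final 2 weeks of lactation the full-fed (FF, n = 13) sows ate 6.5 kg daily, the feed-restricted (RES, n = 14) sows 3.25 kg, after which both groups were fed alike until the ovaries were taken on day 2 after weaning. The labels call this feeding full, whereas the methods give an allowance for it below that of the RES sows in lactation. The sows were picked from a larger cohort by their weight loss, and follicle size was not analysed here, so that feed, weight loss and follicle stage cannot be told apart.

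HIFs are pairs of an oxygen-labile alpha subunit and the stable partner ARNT. In normal oxygen, prolyl hydroxylases of the EGLN family mark the alpha subunit for destruction, and in low oxygen the pair binds short DNA elements and induces genes for glucose uptake, glycolysis and lactate export, together with genes for vessel growth, matrix building, mitophagy and the brake on its own activity. The granulosa layer has no blood vessels inside its basal lamina, and glycolysis in these cells supplies pyruvate and lactate to the oocyte. The question put to the data was whether HIF-induced glycolytic genes and HIF-induced genes outside glycolysis differed between RES and FF in the same direction, and whether they varied together between sows.

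The promoters of the 5 members that passed the test between the groups (3 glycolytic enzymes, ALDOC, PGK1 and PKM, 1 collagen-modifying enzyme, P4HA2, and 1 repressor, MXI1) are shown because HIFs act through such sequences. Each is the 300 bases from 250 before to 50 after the gene start of the RefSeq annotation of Sscrofa11.1, read 5′ to 3′ on the strand of the gene. Capitals mark every place that holds the core letters of the HIF element, ACGTG or GCGTG, on either strand (CACGT or CACGC when read on the opposite strand). Overlapping matches were merged into 1 place, so that CACGTG, which holds the core on both strands, counts once.
ALDOC, chr12:44827224-44827523, minus strand: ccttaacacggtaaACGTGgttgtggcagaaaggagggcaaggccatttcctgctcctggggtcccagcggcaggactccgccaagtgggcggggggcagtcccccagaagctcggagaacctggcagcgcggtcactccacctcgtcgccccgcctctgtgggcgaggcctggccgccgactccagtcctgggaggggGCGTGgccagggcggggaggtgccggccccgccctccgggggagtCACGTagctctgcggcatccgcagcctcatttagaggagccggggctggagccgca
PGK1, chrX:62187222-62187521, plus strand: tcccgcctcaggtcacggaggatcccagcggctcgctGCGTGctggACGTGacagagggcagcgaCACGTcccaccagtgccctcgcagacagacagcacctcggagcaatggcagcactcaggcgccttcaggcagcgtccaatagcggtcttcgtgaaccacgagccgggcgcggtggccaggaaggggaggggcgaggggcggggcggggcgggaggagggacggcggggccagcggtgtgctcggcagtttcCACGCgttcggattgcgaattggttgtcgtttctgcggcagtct
PKM, chr7:60971557-60971856, plus strand: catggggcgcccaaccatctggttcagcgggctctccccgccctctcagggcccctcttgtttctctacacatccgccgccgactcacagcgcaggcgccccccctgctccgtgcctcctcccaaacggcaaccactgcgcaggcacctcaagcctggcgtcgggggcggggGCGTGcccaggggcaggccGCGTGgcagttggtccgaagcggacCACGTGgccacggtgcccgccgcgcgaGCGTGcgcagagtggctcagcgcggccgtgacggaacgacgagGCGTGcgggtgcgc
P4HA2, chr2:134595395-134595694, minus strand: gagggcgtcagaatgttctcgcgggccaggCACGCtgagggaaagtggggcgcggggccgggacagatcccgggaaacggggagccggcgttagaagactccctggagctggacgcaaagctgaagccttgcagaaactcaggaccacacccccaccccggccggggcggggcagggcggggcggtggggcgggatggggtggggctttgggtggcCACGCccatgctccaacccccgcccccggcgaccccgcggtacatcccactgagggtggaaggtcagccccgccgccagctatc
MXI1, chr14:120643441-120643740, plus strand: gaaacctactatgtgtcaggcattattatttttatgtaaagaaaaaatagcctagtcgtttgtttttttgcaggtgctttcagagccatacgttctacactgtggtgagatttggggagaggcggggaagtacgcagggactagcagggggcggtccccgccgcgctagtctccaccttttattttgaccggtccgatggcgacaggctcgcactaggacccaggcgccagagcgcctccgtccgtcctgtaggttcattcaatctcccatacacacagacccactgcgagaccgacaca

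PKM had 5 places with the core letters, PGK1 4, ALDOC 3, P4HA2 2 and MXI1 0. The 1 CACGTG among them lies in the PKM window, and these are also the letters of the E-box read by MYC, MAX and the MXI1 family. Among the 37 members with such a window, 25 (67.6%) held the core, against 9969 of 20664 windows of protein-coding genes (48.2%). The share was 63.2% (12 of 19) for the HIF-induced glycolytic genes and 80.0% (8 of 10) for those outside glycolysis. LDHA counts among the glycolytic genes without the core, and whether its annotated start is the one used in these cells was not tested. CACGTG stood in 5 member windows (13.5%), against 7.64% of all windows. A match is a description of letters in this window and not a binding site, and other start sites of the same genes were not searched.

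Library totals were 12299220 to 16021200 counts in FF (median 13490513) against 12942198 to 18120922 in RES (median 15232600). Granulosa markers were abundant in every library, with a summed level of 79510 to 130540 normalized counts in FF and 80687 to 161103 in RES (10 of 11 listed markers tested). Of these 10, 1 rose, HSD17B1, an estrogen-forming enzyme (log2 ratio 0.56, adjusted p = 0.0270). Over all tested genes 8.29% were called higher and 5.85% lower. Markers of other cells were present at lower levels and partly lower in RES. Of 9 endothelial markers tested 4 fell (CDH5, CLDN5, EMCN and ESAM), with sums of 1243 to 2452 in FF and 858 to 2443 in RES. For stroma and smooth muscle 2 of 10 fell (PDGFRB and RGS5), with sums of 11374 to 29155 and 9087 to 27257. For theca 1 of 8 fell (CYP11A1), with sums of 2365 to 6223 and 1493 to 5506. Among the red blood cell markers 2 of the 3 tested fell (HBB and EPB42), with sums of 45.2 to 1060 and 14.0 to 151, and HBZ was at 0 in all libraries. Immune (4 tested) and oocyte (2 tested) markers had 0 calls, with 2 and 0 genes at an unadjusted p under 0.05 by edgeR. The immune sums were 74.7 to 404 and 44.6 to 317, the oocyte sums 168 to 365 and 150 to 304, and OOSP2 was at 0 in all libraries. The part of these cells in the results below was not tested, and in such bulk samples fewer cells of a type and less RNA per cell cannot be told apart.

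The HIF subunits and their oxygen sensors gave no call between RES and FF by edgeR. HIF1A, the alpha subunit that drives glycolytic targets, was the member with the highest count per kilobase of exon, 6608 ± 813 normalized counts per kb in FF (SD, n = 13) against 7154 ± 803 in RES (SD, n = 14). EPAS1, which encodes HIF-2 alpha, stood at 413 ± 125 and 386 ± 62.3 per kb. The exon lengths are those of RefSeq, whereas the authors counted on Ensembl exons.

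Normalized counts of HIF1A (chr1:190625436-190673926) were 12709 to 21557 in FF (median 19399.8) against 16792 to 24014 in RES (median 20566). The 2 ranges covered mostly the same values, and the ratio of RES over FF on the log2 scale, called the log2 ratio below, was 0.07 (SE 0.07, adjusted p = 0.528 by edgeR's quasi-likelihood test with Benjamini-Hochberg adjustment, as for all adjusted p below unless another tool is named). EPAS1 ranged from 741 to 1870 in FF (median 1125) and from 822 to 1330 in RES (median 1175), with a log2 ratio of −0.14 (SE 0.13, adjusted p = 0.485). ARNT ranged from 612 to 729 (median 676) in FF and from 570 to 679 (median 633) in RES, a difference of −0.13 (SE 0.05, adjusted p = 0.0976). ARNT was called lower by DESeq2 (adjusted p = 0.0426) and by voom with sample weights (adjusted p = 0.0227). ARNT shares 12.1% of its exon bases with CTSK on the same strand, and reads there cannot be assigned to 1 of them.

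EGLN1, the main prolyl hydroxylase, ranged from 301 to 1250 in FF (median 443) and from 301 to 748 in RES (median 408), with a log2 ratio of −0.42 (SE 0.19, adjusted p = 0.139). It was −0.27 (adjusted p = 0.323) without FF sow 6, −0.63 (adjusted p = 0.120) in the libraries with the higher read quality (the upper quality group) and −0.04 (adjusted p = 0.946) in the others (the lower one), and the difference between the quality groups had an adjusted p of 0.465 (edgeR interaction). EGLN3, a prolyl hydroxylase that HIFs themselves induce, ranged from 12.1 to 99.1 in FF (median 42.3) and from 28.4 to 121 in RES (median 70.7). Both groups overlapped over most of their range for both hydroxylases. The log2 ratio of EGLN3 was 0.54 (SE 0.24, adjusted p = 0.128). Without FF sow 11 its adjusted p was 0.0456. HIF1AN, the asparaginyl hydroxylase that blocks HIF activity, had a log2 ratio of −0.10 (adjusted p = 0.465). Of these 6 genes 1 (EGLN3) was higher and 2 (ARNT and EGLN1) lower at an unadjusted p under 0.05, where 15.7% of all genes were higher and 14.3% lower, and the median log2 ratio was −0.11, beside −0.01 over all 11384 genes.

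**Figure D1:**
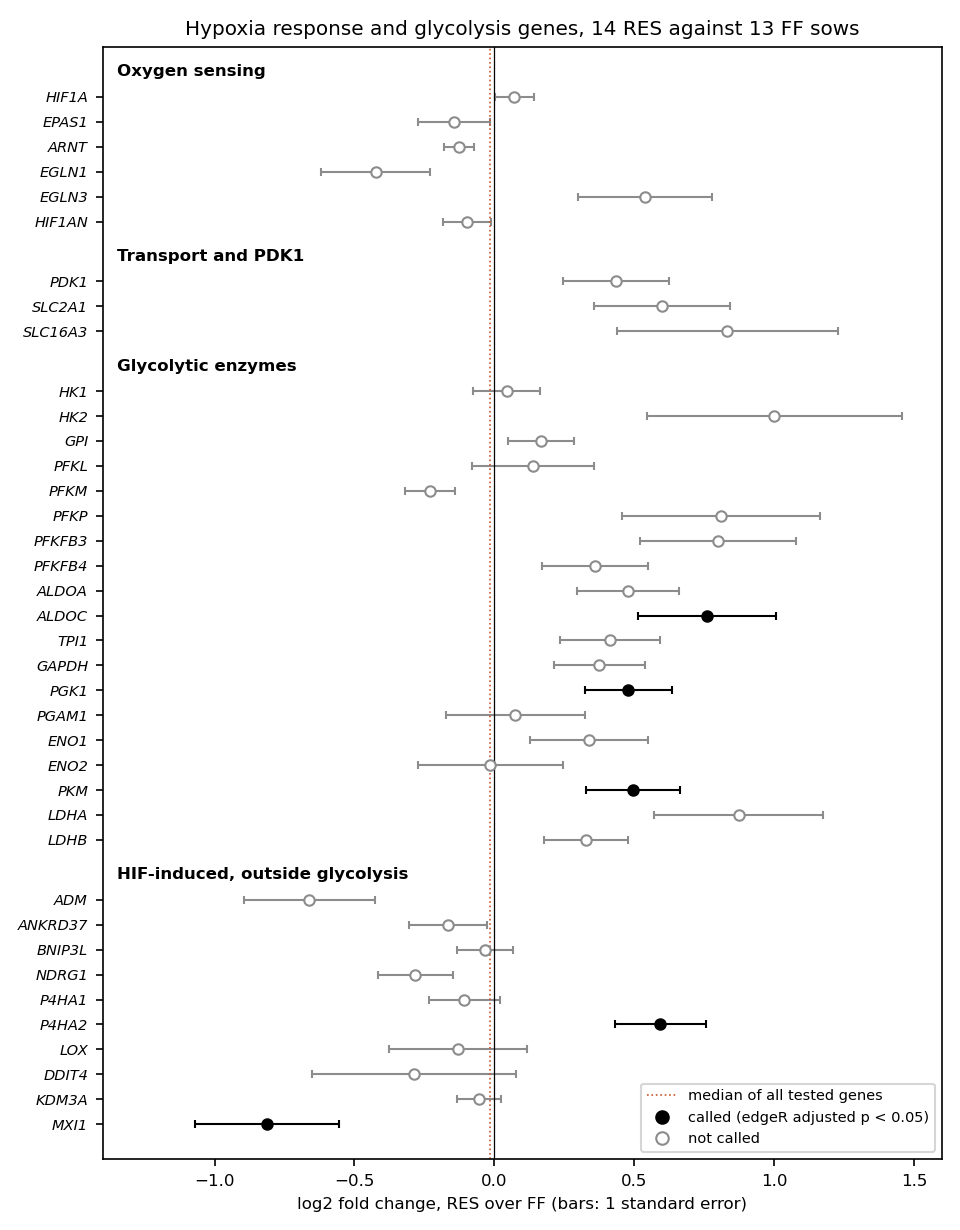
Log2 ratio of RES over FF for each of the 38 members (points) with its standard error (bars), grouped by role, and filled where the adjusted p was under 0.05. The glycolytic enzymes lie mostly to the right of 0, with HK2 farthest at 1.00, whereas P4HA2 at 0.59 is the only one to the right of 0 among the 10 plotted as HIF-induced outside glycolysis. PDK1 at 0.44 and EGLN3 at 0.54, HIF-induced as well, are plotted with the transporters and with the oxygen-sensing genes.

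Between RES and FF 5 of the 38 members passed the test (4 higher and 1 lower), where 14.1% of all tested genes did (1610 of 11384, 8.29% higher and 5.85% lower). The share of the members is thus near the background. DESeq2 called 9 members and 17% of all genes, and voom with sample weights 12 members and 28% of all genes. Beside these 5, DESeq2 called ARNT, ADM, PFKFB3 and LDHA, and voom called these 4 and PFKM, PFKP and PFKFB4. The HIF-induced glycolytic list holds the glycolytic enzymes tested other than PFKM and LDHB, together with the transporters SLC2A1 and SLC16A3, and PDK1 is in neither HIF-induced list. Of the 19 glycolytic genes tested 3 rose and 0 fell, 12 were higher at an unadjusted p under 0.05 (15.7% of all genes were, and 14.3% were lower), and 18 (94.7%) had a positive log2 ratio, against 47.3% of all genes. Their log2 ratios ran from −0.01 to 1.00 with a median of 0.48. Over the 19 glycolytic enzymes, with PFKM and LDHB in and the transporters out, 3 rose and 0 fell, 11 were higher and 1 (PFKM) lower at an unadjusted p under 0.05, 17 (89.5%) had a positive log2 ratio, and the median was 0.38. Of the 10 HIF-induced genes outside glycolysis tested 1 rose and 1 fell, 1 was higher and 3 were lower at an unadjusted p under 0.05, and 1 (10%) had a positive log2 ratio. Their median was −0.15. With the HIF-induced hydroxylases EGLN1 and EGLN3 added, 2 of 12 were positive and the median was again −0.15. The members were chosen with earlier results of these data known, so these counts and medians are a description, and no test between the lists was run.

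Glucose enters through SLC2A1 (GLUT1), the basal glucose transporter, and lactate leaves through SLC16A3 (MCT4), the exporter of glycolytic cells. SLC2A1 ranged from 23.5 to 73.0 normalized counts in FF (median 32.6) and from 32.4 to 212 in RES (median 61.8). The values of 13 of 14 RES sows lay above the FF median, and 3 above the highest FF sow. The log2 ratio was 0.60 (SE 0.24, adjusted p = 0.0924). SLC16A3 was near the detection limit, 1.12 to 16.4 in FF and 2.00 to 63.7 in RES, with a log2 ratio of 0.83 (SE 0.39, adjusted p = 0.153). Without RES sow 3 the log2 ratio was 0.37 for SLC2A1 (adjusted p = 0.226) and 0.41 for SLC16A3 (adjusted p = 0.443).

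The hexokinases, which trap glucose by phosphorylation, differed in level. Per kilobase of exon, HK1 stood at 49.96 ± 9.81 normalized counts in FF (SD, n = 13) against 53.3 ± 14.5 in RES (SD, n = 14), and HK2 at 4.23 ± 3.35 and 8.86 ± 8.93. HK1 ranged from 106 to 251 normalized counts in FF (median 182) and from 123 to 295 in RES (median 188). These ranges overlap almost wholly, and the log2 ratio was 0.04 (SE 0.12, adjusted p = 0.844). HK2, the isoform that HIF1A and growth signals induce, ranged from 0 to 33.6 in FF and from 3.00 to 108 in RES, and its log2 ratio of 1.00 had an SE of 0.46 (adjusted p = 0.136). GPI, the isomerase that follows, ranged from 496 to 857 in FF (median 673) and from 479 to 1613 in RES (median 693), with a log2 ratio of 0.17 (SE 0.12, adjusted p = 0.360). The log2 ratio of GPI was 0.058 without RES sow 3 (adjusted p = 0.715), and that of HK2 was 0.65 without RES sow 1 (adjusted p = 0.335).

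Phosphofructokinase commits the sugar to glycolysis, and its 3 isoforms did not move alike. PFKM, the muscle-type isoform and per kilobase the most abundant of the 3 (58.7 ± 11.4 normalized counts per kb in FF, SD, n = 13), was the only glycolytic enzyme besides ENO2 below 0, with 147 to 272 normalized counts in FF (median 211) against 154 to 260 in RES (median 181). Just 1 RES sow exceeded the FF median, and the log2 ratio was −0.23 (SE 0.09, adjusted p = 0.0809). Without FF sow 4, FF sow 10 or RES sow 3 its adjusted p was 0.0363 to 0.0447. PFKL and PFKP, at 5.90 ± 2.03 and 2.56 ± 2.20 normalized counts per kb in FF (SD, n = 13), had log2 ratios of 0.14 (adjusted p = 0.712) and 0.81 (adjusted p = 0.119). Without RES sow 3 the log2 ratio of PFKL was 0.013 (adjusted p = 0.979). The adjusted p of PFKP was 0.0170 without FF sow 10 and 0.0463 without RES sow 7. PFKFB3 makes fructose 2,6-bisphosphate, the activator of phosphofructokinase, and ranged from 19.8 to 113 in FF (median 48.9) and from 29.0 to 261 in RES (median 91.7). In RES 12 sows exceeded the FF median and 5 the highest FF sow. Its log2 ratio was 0.80 (SE 0.28, adjusted p = 0.0526), and the adjusted p was 0.0196 to 0.0453 without FF sow 4 or 10 or RES sow 2, 4, 5, 7 or 14. PFKFB4, its relative, had a log2 ratio of 0.36 (adjusted p = 0.197, and 0.0332 without FF sow 10).

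Aldolase splits the sugar into 3-carbon units, and the ALDOC isoform rose in RES. ALDOC (ENSSSCG00000017759, chr12:44823376-44827273) ranged from 13.2 to 67.4 normalized counts in FF (median 28.6) and from 24.0 to 106 in RES (median 45.4). The groups overlapped, with 10 of 14 RES sows above the FF median and 3 above the highest FF sow. ALDOC was 1.69-fold higher in RES (log2 ratio 0.76, SE 0.25, adjusted p = 0.0378). The call was lost without any 1 of FF sows 5, 6, 8, 11, 13 and 14 and RES sows 1, 3, 6, 9, 11 and 12, with adjusted p of 0.0515 to 0.0751, and with RNA integrity as a covariate (adjusted p = 0.0508). ALDOA, the isoform with the higher level per kilobase (187 ± 48.7 normalized counts per kb against 16.8 ± 8.85 for ALDOC in FF, SD, n = 13), ranged from 389 to 1167 in FF (median 834) and from 665 to 3163 in RES (median 1135). Its values in 7 RES sows exceeded the highest FF sow. The log2 ratio of ALDOA was 0.48 (SE 0.18, adjusted p = 0.0768), and its adjusted p was 0.0408 to 0.0494 without RES sow 2 or 7. Without RES sow 3 the log2 ratio of ALDOA was 0.31 (adjusted p = 0.167).

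Triose phosphate isomerase and glyceraldehyde phosphate dehydrogenase gave no call. By edgeR TPI1 had a log2 ratio of 0.41 (SE 0.18, adjusted p = 0.116). GAPDH, the oxidation step and a common reference gene, ranged from 2272 to 5799 normalized counts in FF (median 4385) and from 3328 to 12234 in RES (median 5650), a log2 ratio of 0.38 (SE 0.16, adjusted p = 0.118). In both genes 6 RES sows exceeded the highest FF sow.

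PGK1, which makes the first ATP of the pathway and carries 4 core places in the promoter shown above, rose in RES. PGK1 (ENSSSCG00000012440, chrX:62187472-62210321) ranged from 610 to 1949 normalized counts in FF (median 1162) and from 1080 to 3108 in RES (median 1660). In RES 11 sows lay above the FF median and 6 above the highest FF sow, and 3 FF sows lay below the lowest RES sow. PGK1 was 1.39-fold higher (log2 ratio 0.48, SE 0.16, adjusted p = 0.0384). The call was lost without any 1 of FF sows 5, 6, 8, 11, 13 and 14 and RES sows 1, 3, 6, 8, 9 and 11, with adjusted p of 0.0524 to 0.0770, and within each read quality group alone (upper 0.114, lower 0.307).

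PGAM1 and the enolases, which rearrange and dehydrate the 3-carbon acid, gave no call. PGAM1 had a log2 ratio of 0.08 (adjusted p = 0.874). ENO1 ranged from 821 to 2208 normalized counts in FF (median 1365) and from 798 to 5883 in RES (median 1563), with 4 RES sows above the highest FF sow and a log2 ratio of 0.34 (SE 0.21, adjusted p = 0.288). Without RES sow 3 the log2 ratio of ENO1 was 0.11 (adjusted p = 0.689). ENO2, the neuronal isoform, was low at 5.05 ± 2.20 normalized counts per kb in FF (SD, n = 13), against 707 ± 209 for ENO1, and its log2 ratio was −0.01 (adjusted p = 0.979).

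PKM, pyruvate kinase, which makes pyruvate and ATP, rose in RES. PKM (ENSSSCG00000001930, chr7:60971807-61032780) ranged from 690 to 1594 normalized counts in FF (median 1404) and from 1009 to 4182 in RES (median 1691). In RES 8 of 14 sows exceeded the highest FF sow, while the others lay within the FF range. PKM was 1.41-fold higher (log2 ratio 0.50, SE 0.17, adjusted p = 0.0462). The call was lost in 16 of 27 fits that left out 1 sow, namely FF sow 1, 2, 3, 6, 7, 8, 11, 12, 13 or 14 or RES sow 1, 3, 6, 9, 11 or 12, with adjusted p of 0.0530 to 0.0940. It was also lost with RNA integrity as a covariate (adjusted p = 0.0556) and with upper-quartile factors (adjusted p = 0.0641). The counts are per gene and do not separate the M1 and M2 splice forms.

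LDHA, the lactate dehydrogenase subunit that turns pyruvate to lactate, varied widely between sows. It ranged from 279 to 1524 normalized counts in FF (median 644) and from 360 to 3786 in RES (median 1350). In RES 11 sows exceeded the FF median and 6 the highest FF sow, while 1 FF sow lay below the lowest RES sow. The log2 ratio was 0.87 (SE 0.30), or 1.83-fold, and at an adjusted p of 0.0509 it just missed the threshold. It was called without any 1 of FF sows 2, 3, 4, 7 and 12 and RES sows 4, 5, 7, 10, 13 and 14, with adjusted p of 0.0173 to 0.0492, by DESeq2 (adjusted p = 0.0390), by voom with sample weights (0.0175), with all identifiers (0.0464), with filterByExpr (0.0493) and with the read quality group as a covariate (0.0436). LDHB, the heart-type subunit, which favours the reverse reaction, had a log2 ratio of 0.33 (SE 0.15, adjusted p = 0.138). PDK1, a HIF-induced kinase that closes the entry of pyruvate into mitochondria, ranged from 138 to 320 in FF (median 176) and from 116 to 594 in RES (median 248). For PDK1 5 RES sows were above the FF range and 2 below it, and its log2 ratio was 0.44 (SE 0.19, adjusted p = 0.120).

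**Figure D2:**
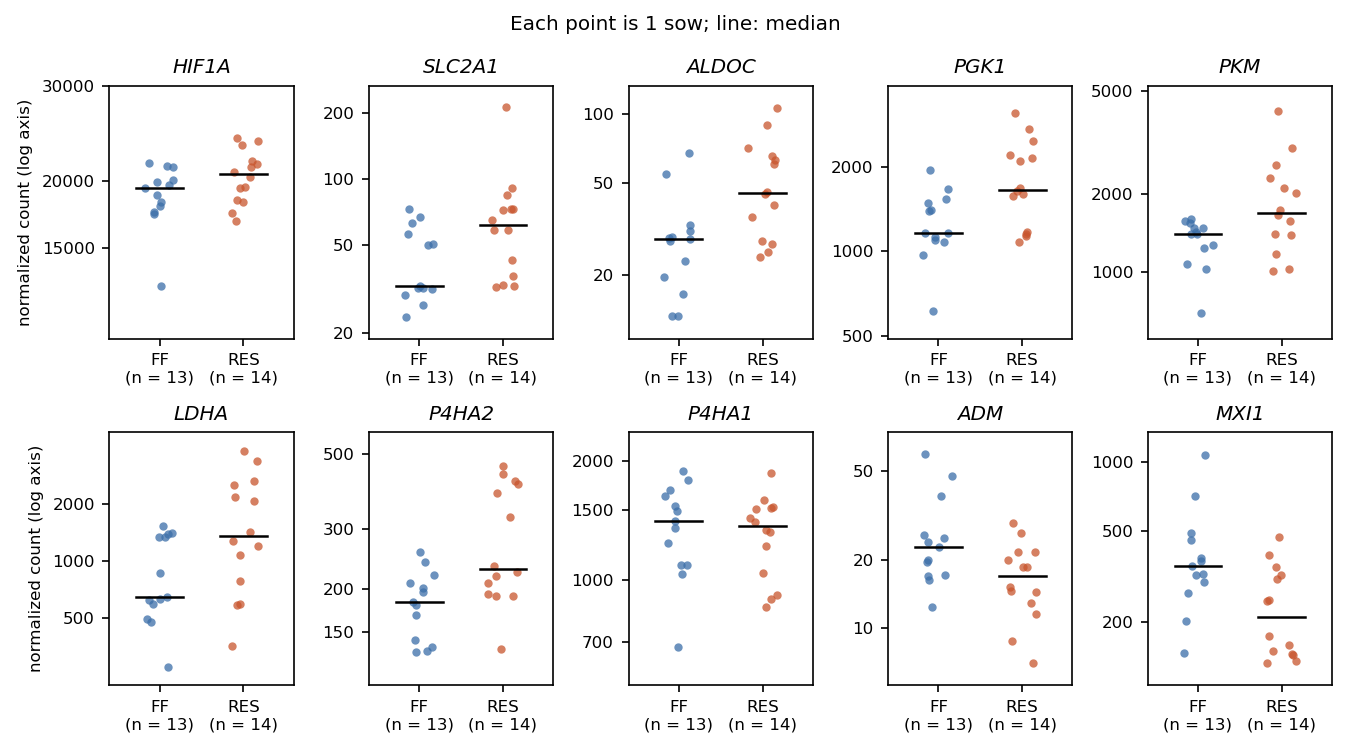
Normalized counts of selected members in each sow (1 point per sow, FF and RES side by side, horizontal bars at the group medians, log axis). The RES values of PGK1, PKM and LDHA reach above those of FF in 6, 8 and 6 sows, whereas HIF1A covers much the same range in both groups and most RES values of MXI1 lie in the lower part of the FF range.

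Outside glycolysis, the member with the lowest adjusted p was P4HA2, a subunit of collagen prolyl 4-hydroxylase. P4HA2 (ENSSSCG00000020915, chr2:134502210-134595444) ranged from 131 to 257 normalized counts in FF (median 183) and from 134 to 461 in RES (median 230). In RES 13 of 14 sows lay above the FF median and 6 above the highest FF sow. P4HA2 was 1.51-fold higher (log2 ratio 0.59, SE 0.16, adjusted p = 0.0155), and it was called in all 27 fits that left out 1 sow, with adjusted p of 0.00360 to 0.0320. It was not called in the lower read quality group alone (log2 ratio 0.30, adjusted p = 0.611). Its exons share 1.64% of their bases with SLC22A4 on the opposite strand, and the counting command set no strand option. P4HA1, the partner isoform and the more abundant one per kilobase (457 ± 113 normalized counts per kb against 34.7 ± 7.85 in FF, SD, n = 13), ranged from 680 to 1886 in FF (median 1408) and from 857 to 1866 in RES (median 1372). The ranges of P4HA1 nearly coincide, and its log2 ratio was −0.11 (SE 0.13, adjusted p = 0.606).

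MXI1 fell in RES. It encodes a repressor that competes with MYC for their common partner MAX and is itself induced by HIF1A. MXI1 (ENSSSCG00000022128, chr14:120643691-120722632) ranged from 146 to 1073 normalized counts in FF (median 349) and from 132 to 468 in RES (median 209). In RES 12 of 14 sows lay below the FF median and 4 below the lowest FF sow, while 3 FF sows exceeded the highest RES sow. Its level in RES was 0.570 times that in FF (log2 ratio −0.81, SE 0.26, adjusted p = 0.0331). The call was lost without any 1 of FF sows 6 and 14 and RES sows 1, 3, 6, 9, 11, 12 and 13, with adjusted p of 0.0506 to 0.0889, and with the read quality group, described below, as a covariate (adjusted p = 0.0546). Within the lower quality group the log2 ratio of MXI1 was −0.05 (adjusted p = 0.965), and within the upper one −1.38 (adjusted p = 0.0173).

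The other HIF-induced genes outside glycolysis gave no call by edgeR over all sows. ADM, the vasodilator peptide adrenomedullin, ranged from 12.4 to 59.2 normalized counts in FF (median 23.1) and from 6.99 to 29.4 in RES (median 17.0), with 12 RES sows at or below the FF median and a log2 ratio of −0.66 (SE 0.24, adjusted p = 0.0566). Its adjusted p was 0.0357 to 0.0495 without FF sow 7, 11 or 12 or RES sow 2, 4 or 10. ADM was also called lower by DESeq2 (adjusted p = 0.0368), by voom with sample weights (0.0422), with upper-quartile factors (0.0470) and with filterByExpr (0.0480). NDRG1, a hypoxia and stress marker, ranged from 37.1 to 69.4 in FF (median 51.7) and from 30.1 to 62.7 in RES (median 43.9), with a log2 ratio of −0.28 (SE 0.13, adjusted p = 0.155). ADM and NDRG1 thus had lower medians in RES with overlapping groups. DDIT4, an inhibitor of the growth kinase complex mTORC1, varied widely within both groups, from 98.0 to 1510 in FF (median 412) and from 84.3 to 1165 in RES (median 437), and its log2 ratio of −0.29 had an SE of 0.36 (adjusted p = 0.632). When 1 sow was left out this ratio ran from −0.48 (without RES sow 7) to −0.06 (without FF sow 2). BNIP3L, a mitophagy receptor, had a log2 ratio of −0.03 (adjusted p = 0.862). KDM3A, a histone demethylase, stood at −0.06 (adjusted p = 0.676). LOX, the collagen crosslinker, stood at −0.13 (adjusted p = 0.765), and ANKRD37, a small ankyrin repeat protein, at −0.17 (adjusted p = 0.446).

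The high values of the glycolytic genes were shared by some of the RES sows. Of the 19 HIF-induced glycolytic genes, 13 (68.4%) had at least 3 RES sows above the highest FF sow, against 23.9% of all tested genes and 1 of 10 genes outside glycolysis. In RES sow 3, 16 of the 19 genes exceeded the highest FF value. The number was 13 in RES sow 1, 11 in sow 9, 10 in sow 6, 8 in sow 12 and 7 in sow 11. It was 3 in sow 5, 1 each in sows 4, 7 and 8, and 0 in sows 2, 10, 13 and 14. By the study's quality values, RES sow 3 had the lowest RNA integrity of the RES sows and the lowest read quality of all libraries. RES sows 1, 6, 9, 11 and 12 had the highest RNA integrity of the RES sows. The part of RNA integrity in these high values was not tested. With the 27 sows ranked from low to high for each gene, the mean rank over the 19 glycolytic genes was 25.6 in RES sow 3 and 24.7 in RES sow 1, and it was 6.89 in RES sow 7 and 3.74 in FF sow 14. Over the 10 genes outside glycolysis RES sows 3, 1, 7 and FF sow 14 had mean ranks of 13.2, 12.1, 11.9 and 17.2. FF sow 14, the lowest in the glycolytic genes, was thus the highest of these 4 in the other list.

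The spread between sows was also larger in RES. The coefficient of variation exceeded that of FF in 16 of 19 glycolytic genes (84.2%, against 49.0% of all tested genes), with a median of 0.391 in FF and 0.485 in RES. For the genes outside glycolysis it was larger in RES in 5 of 10, with medians of 0.238 and 0.318. In no member were the 2 groups without overlap, as they were in 1 of the 11384 genes.

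**Figure D3:**
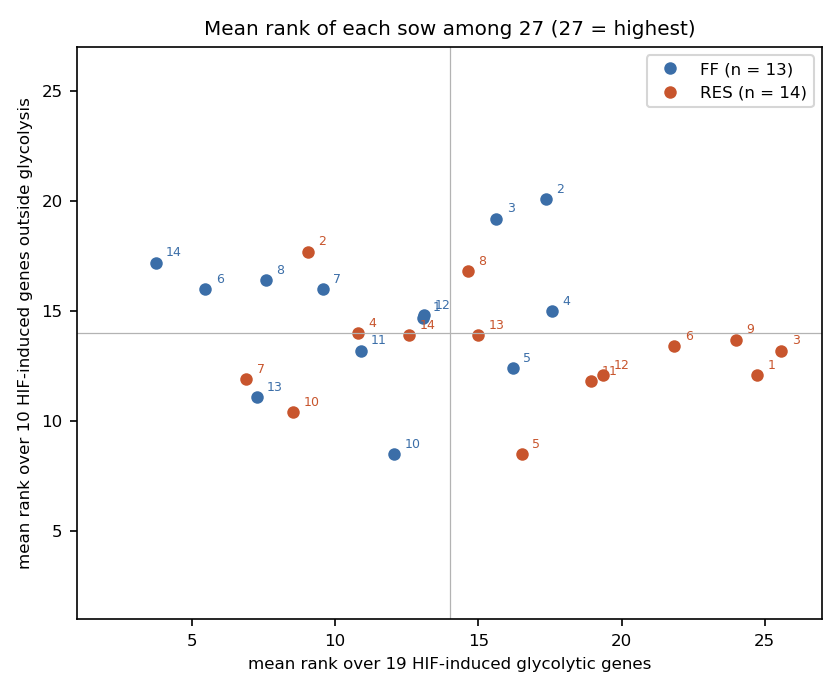
Mean rank of each sow among the 27 sows (1 point per sow) over the 19 HIF-induced glycolytic genes (horizontal axis) and the 10 HIF-induced genes outside glycolysis (vertical axis). Along the glycolytic axis the sows spread from 3.74 to 25.6, and the RES sows at its upper end, such as sows 3 and 1, lie at 13.2 and 12.1 on the other axis.

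Co-expression was examined within each group as Pearson's r of normalized counts over the sows. The glycolytic genes varied together. Their median pairwise r was 0.41 in FF (0.33 to 0.48 when each sow was left out in turn) and 0.79 in RES (0.70 to 0.82), whereas the median over all pairs of tested genes was −0.0015 in FF and 0.0084 in RES. The genes outside glycolysis had a median r among themselves of 0.04 in FF (−0.02 to 0.15) and −0.04 in RES (−0.11 to 0.02). Between both lists it was −0.04 in FF (−0.08 to 0.01) and −0.20 in RES (−0.22 to −0.12). The medians near 0 changed sign with the measure. As Spearman's rho the median between both lists was 0.04 in FF and −0.18 in RES. Among the genes outside glycolysis in RES it was 0.02 as rho and 0.004 with TMM-scaled counts. The difference between FF and RES was not tested.

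Some HIF-induced genes outside the glycolytic list nonetheless tracked it in RES. The median r with the 19 glycolytic genes was 0.77 in RES for P4HA2 (0.41 in FF), 0.58 for KDM3A (0.22), 0.52 for P4HA1 (0.09) and 0.65 for the kinase PDK1 (0.58). Others ran against it, with −0.60 for ANKRD37 (−0.09 in FF), −0.56 for MXI1 (−0.36), −0.37 for ADM (−0.36), −0.31 for LOX (−0.15), −0.32 for DDIT4 (0.30) and −0.17 for BNIP3L (0.05). For NDRG1 it was 0.04 (−0.13 in FF) and for EGLN3 −0.001 (0.08). HIF1A had a median r of 0.40 in RES and 0.28 in FF. ENO2 was the 1 glycolytic gene below 0 in RES (−0.25, and 0.10 in FF).

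LDHA was paired with 9 fixed genes in each group, and the 18 correlations were tested by permutation with Benjamini-Hochberg adjustment. In RES (n = 14) r of LDHA with PGK1 was 0.91 (permutation p = 1e-05, the smallest that 100000 permutations can give, adjusted p = 0.00018). With PKM it was 0.87 (permutation p = 9e-05, adjusted p = 0.00054), with ALDOA 0.67 (permutation p = 0.00504, adjusted p = 0.013) and with P4HA1 0.89 (permutation p = 2e-05, adjusted p = 0.00018). Spearman's rho was 0.94 for PGK1 (permutation p = 1e-05), 0.82 for PKM (permutation p = 0.00062), 0.65 for ALDOA (permutation p = 0.0147) and 0.93 for P4HA1 (permutation p = 2e-05). After leaving out the 2 sows farthest from the LDHA median, r was 0.92, 0.83, 0.67 and 0.86 in that order. ALDOA then missed the threshold after adjustment (adjusted p = 0.0516).

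With HIF1A r was 0.57 in RES (permutation p = 0.0351, adjusted p = 0.0633), while rho was 0.67 (permutation p = 0.0115, adjusted p = 0.0296). With TMM-scaled counts r was 0.39 (adjusted p = 0.221), and without the 2 farthest sows it was 0.48 (n = 12, permutation p = 0.113, adjusted p = 0.196). On log2 counts it was 0.68 (adjusted p = 0.0191), and with values centred within quality groups 0.65 (adjusted p = 0.0218), both past the threshold. For the other HIF targets in RES r was 0.04 with NDRG1 (permutation p = 0.901), 0.29 with EGLN3 (permutation p = 0.312) and −0.45 with ADM (permutation p = 0.101), and rho was 0.13, 0.27 and −0.35 (permutation p = 0.657, 0.347 and 0.213). Without the 2 farthest sows r was 0.19, 0.27 and −0.42.

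In FF (n = 13) r of LDHA was 0.77 with PGK1 (permutation p = 0.00112, adjusted p = 0.00403), 0.71 with ALDOA (permutation p = 0.00489, adjusted p = 0.013) and 0.62 with PKM (permutation p = 0.0183, adjusted p = 0.0413). The corresponding rho was 0.79, 0.73 and 0.57 (permutation p = 0.00184, 0.00611 and 0.0462), and r without the 2 farthest sows 0.71, 0.71 and 0.60. The correlation with PKM missed the threshold after adjustment as rho (adjusted p = 0.0832), with TMM-scaled counts (adjusted p = 0.0695) and without the 2 farthest sows (adjusted p = 0.104). With HIF1A r was 0.57 (permutation p = 0.0269, adjusted p = 0.0538), while rho was 0.60 (permutation p = 0.0323, adjusted p = 0.0646). Without the 2 farthest sows r was 0.50 (n = 11, permutation p = 0.120, adjusted p = 0.196), and without FF sow 10 it was 0.73 (permutation p = 0.0105, adjusted p = 0.0264). With P4HA1, NDRG1, EGLN3 and ADM r was 0.50, −0.37, −0.22 and −0.48 (permutation p = 0.0845, 0.209, 0.486 and 0.0929), and rho 0.42, −0.21, −0.12 and −0.54 (permutation p = 0.158, 0.482, 0.711 and 0.0618). Without the 2 farthest sows these 4 r were 0.24, −0.57, −0.23 and −0.46. With values centred within quality groups r with ADM was −0.68 (adjusted p = 0.02).

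**Figure D4:**
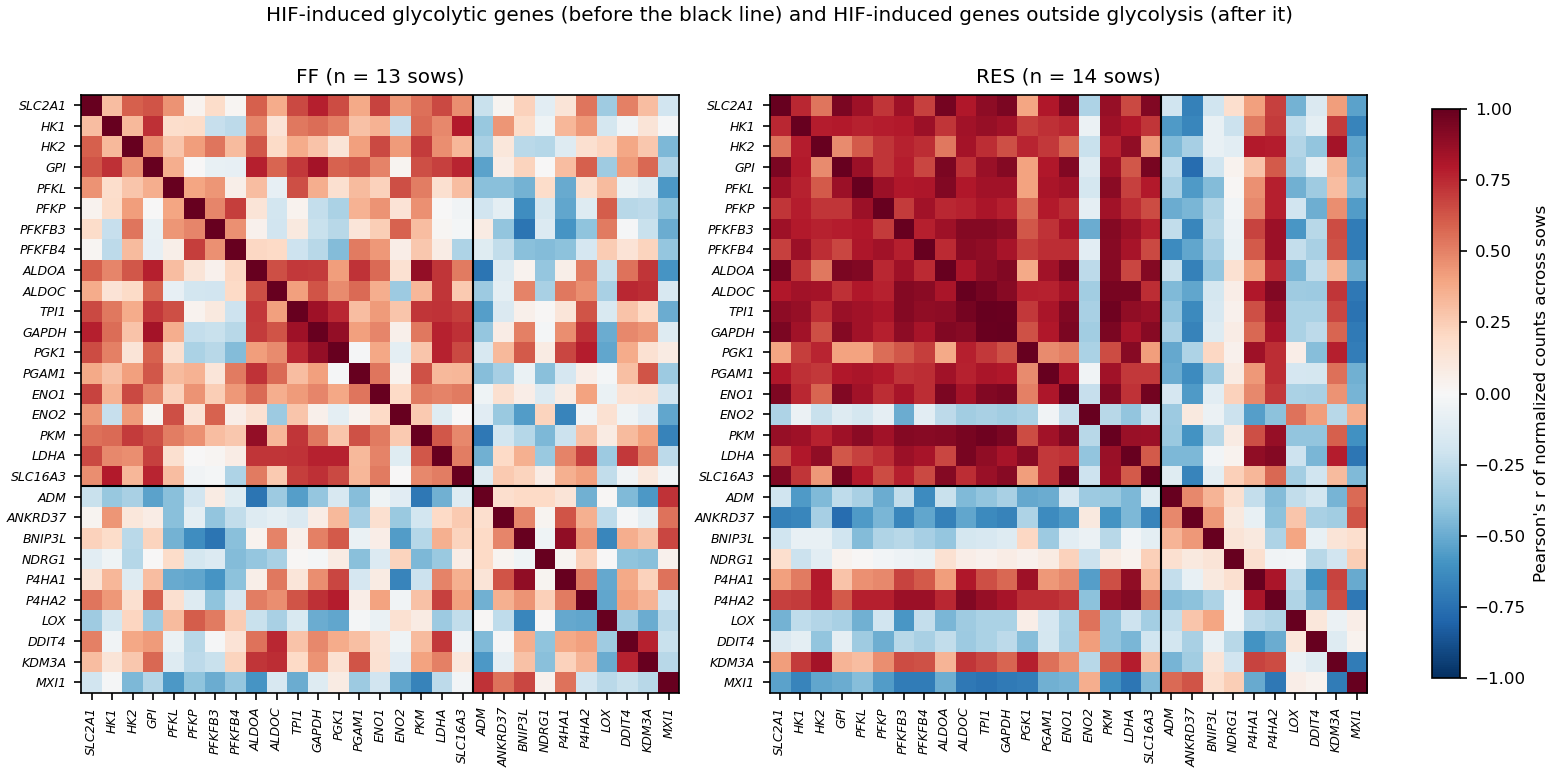
Pearson's r of normalized counts over the FF sows (left, n = 13) and the RES sows (right, n = 14) between the 19 HIF-induced glycolytic genes (before the black line) and the 10 outside glycolysis (after it), with the colour scale running from −1 to 1. The block of glycolytic genes has a median r of 0.41 in FF and 0.79 in RES, and the block between glycolytic genes and HIF-induced genes outside glycolysis has medians of −0.04 and −0.20.

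Other measures moved with the glycolytic genes between sows. Of 11 cell cycle genes tested 9 rose, where 8.29% of all genes did, and their median log2 ratio was 1.01. The study reported the rise of cell cycle genes from these same libraries. The cell cycle genes had a median r with the glycolytic list of 0.23 in FF (0.13 to 0.39 when each sow was left out) and 0.63 in RES (0.60 to 0.67). CDK1, the mitotic kinase, had r of 0.80 with LDHA in RES (permutation p = 0.00062, adjusted p = 0.00279, rho 0.83 with permutation p = 0.00045, r = 0.81 without the 2 farthest sows) and 0.26 in FF (permutation p = 0.394, rho 0.15 with permutation p = 0.630, r = 0.34 without the 2 farthest sows). In RES 4.57% of all tested genes had r over 0.8 with LDHA, and in FF 0.246%. The stroma and smooth muscle markers had a median r with the glycolytic list of −0.04 in FF and −0.38 in RES, and the endothelial markers 0.03 and −0.27. For granulosa markers it was 0.18 and 0.26. The part of cell cycle activity or of other cell types in the glycolytic values was not tested.

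Libraries fell into 2 groups by the share of bases with a high quality score in the study's read statistics, and only the upper one (7 FF and 7 RES sows) gave calls among members when each was tested alone. There 8 of 38 members passed, where 17.8% of all genes did. PFKP (1.27), PFKFB3 (0.99), ALDOC (0.91), P4HA2 (0.84), PFKFB4 (0.74), PKM (0.71) and ALDOA (0.62) rose on the log2 scale, and MXI1 fell by 1.38, with adjusted p from 0.0133 (P4HA2) to 0.0418 (PFKP). In the lower one (6 FF and 7 RES sows) 0 of 38 passed by edgeR, as did 0.00878% of all genes (1 gene, with 1385, or 12.2%, at an unadjusted p under 0.05). There the log2 ratio was 0.30 for P4HA2 (adjusted p = 0.611), −0.05 for MXI1 (adjusted p = 0.965), 0.48 for PGK1 (adjusted p = 0.307) and 0.72 for LDHA (adjusted p = 0.454). The median over the glycolytic list was 0.50 for the upper group against 0.36 for the lower, and over the genes outside glycolysis −0.26 and −0.03. No member's RES effect differed between the quality groups by the interaction test, with the lowest unadjusted p for MXI1 (0.00772, adjusted p = 0.293). RES sows 1, 6, 9, 11 and 12, named above for their high glycolytic values, were in the upper group and RES sow 3 in the lower one. The place of FF sow 10 is uncertain, since the sources differ on which FF library had low RNA integrity.

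**Figure D5:**
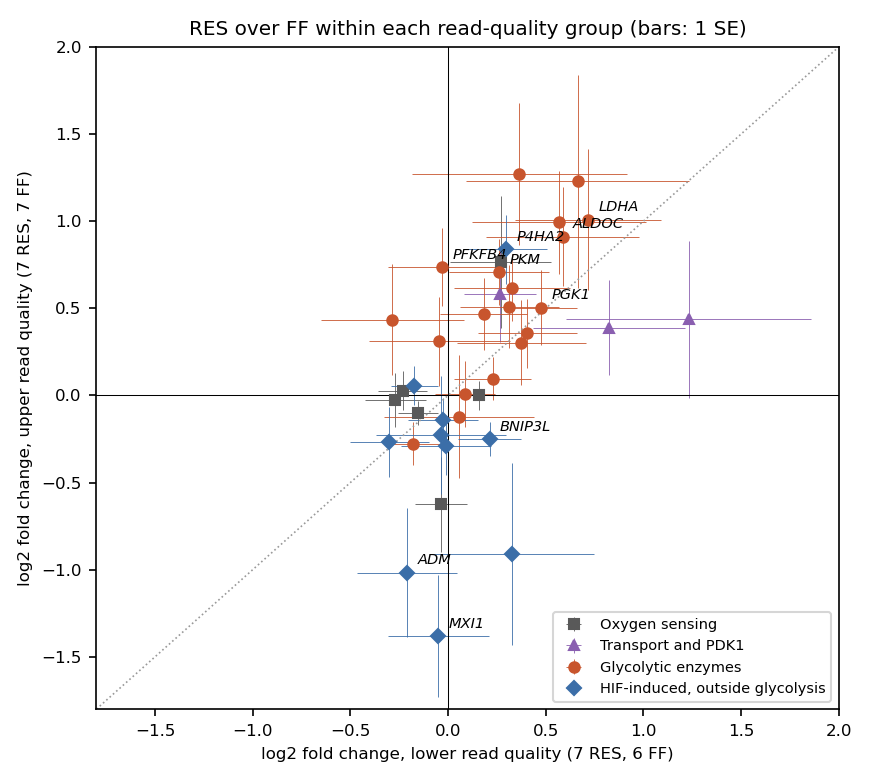
Log2 ratio of RES over FF for each member in the lower read quality group (horizontal axis, 6 FF and 7 RES sows) and in the upper one (vertical axis, 7 and 7 sows), 1 point per member coloured by role with bars of 1 SE and a dotted line of equal values. Glycolytic genes lie mostly above 0 on both axes, and MXI1 stands apart with −1.38 in the upper and −0.05 in the lower group.

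Lists of neighbouring genes were examined in the same way, beside 8.29% of all genes called higher and 5.85% called lower. Among 32 further hypoxia genes tested 1 rose and 5 fell, with a median log2 ratio of −0.13. TFRC, the transferrin receptor, rose by 0.46 (adjusted p = 0.0261). CITED2, which competes with HIF alpha for its coactivator, fell by 1.30 (adjusted p = 0.00640). BHLHE41, a HIF-induced repressor, fell by 0.89 (adjusted p = 0.00389), with 36.6 to 96.3 normalized counts in FF and 7.99 to 46.7 in RES. All 14 RES values of BHLHE41 lay below the FF median of 62.0. ANGPTL4, a lipase inhibitor, fell by 0.80 (adjusted p = 0.0296). PPP1R3C and GBE1, which serve glycogen synthesis, fell by 0.53 and 0.27 (adjusted p = 0.0227 and 0.0428).

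Among 22 further glycolysis genes 1 rose and 3 fell, with a median of −0.11. SLC2A8, a glucose transporter of inner membranes, rose by 0.48 (adjusted p = 0.0375). FBP2, the muscle fructose bisphosphatase, which runs the sugar backward, fell by 1.16 (adjusted p = 0.0102). SLC16A7, a high-affinity pyruvate and lactate carrier, fell by 0.94 (adjusted p = 0.0403), and ENO4, an enolase relative of the sperm tail, by 0.60 (adjusted p = 0.0176). For the entry of pyruvate into mitochondria, 0 of 12 genes passed by edgeR, 3 were higher at an unadjusted p under 0.05, and the median was 0.08. In the MYC network, to which MXI1 belongs, 2 of 9 fell and 0 rose, 2 were higher and 2 lower at an unadjusted p under 0.05, and the median was 0.06. MXD1 fell by 0.67 (adjusted p = 0.00644) and MXD4 fell by 0.83 (adjusted p = 0.0420). Both are repressors that pair with MAX as MXI1 does. MXD3, a repressor of the same family named here after its values were seen, had a log2 ratio of 0.60 (SE 0.24, adjusted p = 0.0889), with 13 RES sows above the FF median.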

How the data were processed

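RNA of laser-captured mural GCs was sequenced in 27 libraries, 1 per sow. Per the labels and the methods, the authors removed ribosomal RNA, cleaned the reads with SOAPnuke, aligned them to Sscrofa11.1 with HISAT2 2.2.1, kept uniquely mapped reads with SAMtools 1.16.1, removed PCR copies with UMI-tools 1.1.4 and counted read pairs on Ensembl exons with featureCounts 1.6.2. The library kit kept strand, but the counting command in the file headers sets no strand option. The deposited values are raw counts for 35670 identifiers. Sequences of near-identical copies elsewhere in the genome were found for 0 of 37 members (BLAST+ 2.17.0, at least 97% identity over at least 150 bases).

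Of these, 17467 reached a mean count of 5, and 11422 of those had a symbol. After 38 small RNAs were left out, 11384 genes entered the quasi-likelihood test of edgeR 4.0.16 (R 4.3.3, TMM factors). Calls were made where the p adjusted by Benjamini and Hochberg was below 0.05. For normalized counts, each library was scaled by its DESeq2 1.42.0 size factor. Correlations were tested with 100000 permutations in Python 3.11.15, two-sided. Members called, and further genes fixed by symbol, were named with their ranges. The members and lists were chosen with earlier results of these data known. Alternatives were DESeq2, other size factors and filters, all identifiers, a replicate block, read quality group or RNA integrity (RIN) as a covariate, voom of limma 3.58.1 with sample weights, and each sow left out. For the correlations they were log2 counts, TMM scaling, ranks (Spearman) and centring within quality groups. The tests were tested on simulated data first. Replicates are separate sows. Positions and promoters were matched by symbol to RefSeq on Sscrofa11.1. LDHB matched 2 RefSeq loci and has none.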

Additional observations from a re-analysis of the deposited data

How the results depend on the processing

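The count of called genes was 1610, 3193 with voom and sample weights, 1 in the lower quality group, and 1182 to 2350 when each sow was left out. The count of HIF-induced glycolytic genes called higher (3) was 5 by DESeq2, 5 with all identifiers, 7 with voom, 6 with upper quality sows alone and 0 with lower ones, and 0 to 7 when each sow was left out. For the genes outside glycolysis (1) it was 0 in the lower quality group. The count of members called (5) was 9 by DESeq2, 12 with voom, 8 with upper quality sows alone and 0 with lower ones, and 1 to 9 when each sow was left out. The cause of these changes was not tested.

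With the replicate number as a block, 0 HIF-induced glycolytic genes, 0 genes outside glycolysis and 0 members were called (P4HA2 adjusted p = 0.0504, MXI1 0.0927, ALDOC 0.0653, PGK1 0.0679 and PKM 0.138), and the log2 fold change of DDIT4 was 0.034. The numbers only name sows. Over 13 pairs the correlation of their deviations was −0.22 to 0.30, with 1 over 0.1, and 1 of the sows correlated best with its own number.

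ALDOC had an adjusted p of 0.0508 and PKM 0.0556 with RIN as a covariate, MXI1 0.0546 with the quality group as a covariate, and PKM 0.0641 with upper-quartile factors. Signs changed in the members named next and in DDIT4 above, none of them called over all sows. In the upper quality group the log2 fold change was 0.027 for HIF1AN and 0.056 for KDM3A. In the lower one it was 0.21 for BNIP3L, −0.044 for PFKL, −0.029 for PFKFB4, −0.28 for PGAM1, 0.056 for ENO2 and 0.33 for DDIT4. With all identifiers it was 0.0096 for BNIP3L and 0.024 for ENO2, with voom −0.064 for PGAM1, and with RIN 0.0070 for ENO2. When each sow was left out it was −0.085 to 0.0038 for BNIP3L, −0.0098 to 0.090 for HK1, −0.046 to 0.16 for PGAM1 and −0.11 to 0.059 for ENO2. In RES r of LDHA with NDRG1 was −0.082 with TMM-scaled counts and −0.025 without RES sow 7.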
